A study of Mus musculus with 21 samples.

Results

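The genes followed here encode 9 transcription factors that set and maintain hepatocyte identity, measured in RNA from mouse hearts. Hnf4a, Foxa1, Foxa2, Foxa3, Cebpa, Nr1h4, Nr1i3, Onecut1 and Nr0b2 were chosen by name, and all 9 were found among the 46517 Ensembl genes of the deposited count table. The study examined how loss of the Notch3 receptor, which acts in vascular smooth muscle cells and pericytes, affects the heart. Left ventricle was frozen and used for bulk RNA-sequencing, with 3 technical libraries prepared from each heart. The control group was 4 Notch3+/+ mice and the other group was 3 Notch3-/- mice, whose Notch3 gene was disrupted in every cell by insertion of a lacZ cassette. All 7 mice were C57BL/6J and 10 to 14 months old, and the sex of the sequenced mice is not given.

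Counts of the 3 technical libraries were summed for each heart, so that 1 mouse is 1 replicate. The totals ranged from 3046326 to 4638786 counts in control mice and from 3828763 to 5167869 in Notch3-/- mice. Control mice 1 and 2 carry labels that start with X and the other 5 mice labels that start with k, so a label series holds both genotypes only among the mice labelled k. Levels are counts per 1000000 counts (CPM) after TMM normalisation, which scales each heart by the trimmed mean of its ratios to the others. Notch3-/- mouse 3 stood apart from the other mice of its genotype, with 225 CPM of 19 liver products summed against 7965 and 13857 CPM in mice 1 and 2 and 83.3 to 242 CPM in control hearts, so results are given for each heart and, where they turn on mouse 3, without it. The reads were amplified by PCR without molecular identifiers, so intervals and floors cover counting error only.

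HNF4A is a nuclear receptor required for the differentiated hepatocyte, the FOXA proteins open chromatin at liver genes, and C/EBP alpha and ONECUT1 (HNF6) act with them on genes for plasma proteins and metabolic enzymes. Nr1h4 encodes FXR, the bile acid receptor, Nr0b2 encodes its target SHP, a repressor of bile acid synthesis, and Nr1i3 encodes CAR, a sensor of foreign compounds. These factors bind control regions of each other's genes and together form a network, and most of them are not known as regulators of heart muscle. The comparison asks if the regulators accompanied the liver products, such as albumin mRNA, in the Notch3-/- hearts. In bulk RNA, fewer cells of a type and less RNA per cell cannot be told apart.

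The targeted gene followed the labels. Notch3 was at 54.7 ± 8.62 CPM (SD, n = 4) in control hearts and 6.10 ± 1.42 CPM (SD, n = 3) in Notch3-/- hearts. It was lower in each Notch3-/- heart than in any control heart. The log2 difference was -3.16 (SE 0.23), with an FDR of 0.00173 by the quasi-likelihood test of edgeR after Benjamini-Hochberg adjustment.

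The start regions of members are shown because several of the genes moved together in the same hearts. The RefSeq table of start regions (GRCm38.p6) holds all 9 members with 12 start regions, each of 300 bases, from 250 bases before to 50 bases after a start. Hnf4a has 2 of them and Foxa2 has 3, and the counts are per gene and do not separate the starts. In the regions of Hnf4a, Foxa1, Foxa2 and Nr0b2 below, capitals mark matches to the 5 motifs searched.
Hnf4a, first start (chr2:163506607-163506906, plus strand): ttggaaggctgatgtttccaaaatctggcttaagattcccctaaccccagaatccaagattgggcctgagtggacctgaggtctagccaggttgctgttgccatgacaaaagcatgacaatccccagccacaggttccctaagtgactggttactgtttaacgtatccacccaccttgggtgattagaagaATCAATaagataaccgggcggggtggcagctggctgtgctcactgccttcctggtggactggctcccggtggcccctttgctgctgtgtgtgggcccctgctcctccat
Foxa1 (chr12:57546062-57546361, minus strand): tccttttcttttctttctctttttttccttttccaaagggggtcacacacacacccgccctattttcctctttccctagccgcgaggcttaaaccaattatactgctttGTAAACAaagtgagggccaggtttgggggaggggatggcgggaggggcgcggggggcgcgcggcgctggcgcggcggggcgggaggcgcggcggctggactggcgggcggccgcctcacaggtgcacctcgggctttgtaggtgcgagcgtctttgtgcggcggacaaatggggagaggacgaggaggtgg
Foxa2, start 3 (chr2:148046920-148047219, minus strand): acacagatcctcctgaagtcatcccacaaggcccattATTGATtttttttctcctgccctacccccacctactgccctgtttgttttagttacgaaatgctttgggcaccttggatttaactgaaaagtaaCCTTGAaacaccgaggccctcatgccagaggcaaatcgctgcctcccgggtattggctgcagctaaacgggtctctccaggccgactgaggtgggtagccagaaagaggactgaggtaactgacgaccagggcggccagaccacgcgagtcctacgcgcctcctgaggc
Nr0b2 (chr4:133553126-133553425, plus strand): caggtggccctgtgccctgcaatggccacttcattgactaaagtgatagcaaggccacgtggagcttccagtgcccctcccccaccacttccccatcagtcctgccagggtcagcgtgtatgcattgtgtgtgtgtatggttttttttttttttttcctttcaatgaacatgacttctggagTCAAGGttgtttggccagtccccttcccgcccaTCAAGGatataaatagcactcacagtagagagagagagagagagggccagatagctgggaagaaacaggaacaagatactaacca

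The motifs were searched on both strands among all 32851 start regions of that length. The ONECUT motif ATCAAT, found in 7.54% of all regions, was in the first Hnf4a region and, on the minus strand, in the third Foxa2 region. The second Hnf4a region, which is not shown, had no match to any of the 5 motifs. The NR5A motif TCAAGG was present at 2 positions in Nr0b2, at 1 position in the first Foxa2 region and in the third, and in 14.4% of all regions. The FOXA motif TGTTTAC was in 3.65% of all regions and, among the members, in Foxa1 alone, on the minus strand. The C/EBP motif TTGCNNAA (10.8% of all regions) and the HNF4 motif CAAAGTCCA (0.475%) were in none of the 12. A match describes letters only and was not tested as a binding site.

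Hnf4a (ENSMUSG00000017950, chromosome 2, 163506808 to 163572910, plus strand, GENCODE vM21 of GRCm38) had 0, 1, 0 and 0 counts in control mice 1 to 4. In Notch3-/- mice 1, 2 and 3 it had 130, 693 and 2 counts, or 35.5, 146 and 0.378 CPM. Hnf4a was thus high in Notch3-/- mice 1 and 2, while mouse 3 lay just above the control hearts and could not be separated from them by counting. Against the pooled control hearts, the ratio was 534 (95% exact interval 94.1 to 21245) in mouse 1, 2190 (392 to 86636) in mouse 2 and 5.68 (0.296 to 335) in mouse 3. An antisense gene, Hnf4aos, overlaps the Hnf4a locus but shares no exon bases with it, and it had 6, 21 and 0 counts in these 3 mice and 0 in every control mouse.

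The 3 Foxa genes had no counts in any of the 12 control libraries. Foxa3 (ENSMUSG00000040891, chromosome 7, 19013284 to 19023538, minus strand) had 13, 259 and 2 counts in Notch3-/- mice 1 to 3. Foxa2 (ENSMUSG00000037025, chromosome 2, 148042877 to 148046969, minus strand) had 12, 16 and 0 counts in these mice. Foxa1 (ENSMUSG00000035451, chromosome 12, 57540628 to 57546916, minus strand) had 0, 8 and 0. Foxa3 had the most counts of the 3 in mouse 2, while in mouse 1 Foxa3 and Foxa2 were near each other. Computed against a floor of 3 counts over the control group, Foxa3 was 17.8-fold over the floor in mouse 1 and 273-fold in mouse 2. Such a value takes the Notch3-/- count as exact, so it is not the lower limit of an interval. The values for Foxa2 were 16.4-fold and 16.9-fold, but 11 of its 12 counts in mouse 1 came from 1 technical library. For Foxa1, read in mouse 2 only, the value was 8.43-fold, from 8 counts.

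Onecut1 (ENSMUSG00000043013, chromosome 9, 74861921 to 74891781, plus strand) followed the same order, with no counts in control hearts and 14, 84 and 0 counts in Notch3-/- mice 1 to 3. Against the same floor over the control group, it was 19.2-fold higher in mouse 1 and 88.5-fold higher in mouse 2. It was not detected in mouse 3, where the floor of 3 counts is 0.567 CPM. The long noncoding gene Gm20649 lies on the same strand and shares 52.8% of the Onecut1 exon bases, and it had 11, 41 and 0 counts in these mice. Reads of the shared bases cannot be told apart.

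Cebpa (ENSMUSG00000034957, chromosome 7, 35119293 to 35121928, plus strand) was present at a low level in control hearts, with 3, 14, 6 and 5 counts. It had 52, 141 and 10 counts in Notch3-/- mice 1 to 3. Mice 1 and 2 lay above every control heart, whereas mouse 3, at 1.89 CPM, lay within the control range of 0.988 to 2.95 CPM. The ratio to the pooled control hearts was 7.63 (95% exact interval 4.73 to 12.5), 15.9 (10.6 to 24.8) and 1.01 (0.440 to 2.15) in the 3 mice. Nr1h4 (ENSMUSG00000047638, chromosome 10, 89454234 to 89533585, minus strand) had 6, 2, 3 and 0 counts in the control hearts, against 47, 280 and 6 in the Notch3-/- hearts. Its pattern was the same, with ratios of 17.6 (8.97 to 37.5) and 80.5 (44.3 to 163) in mice 1 and 2, and mouse 3 within the control range.

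Nr1i3 and Nr0b2 differed from the other 7 members, since both had counts in every library of every heart. Nr0b2 (ENSMUSG00000037583, chromosome 4, 133553376 to 133556536, plus strand) had 87, 122, 101 and 72 counts in the control hearts, against 104, 209 and 153 in the Notch3-/- hearts. Its level was 25.5 ± 2.24 CPM (SD, n = 4) in control and 33.8 ± 8.83 CPM (SD, n = 3) in Notch3-/- hearts, and the groups overlapped because Notch3-/- mouse 1, at 28.4 CPM, lay below control mouse 1, at 28.7 CPM. Nr1i3 (ENSMUSG00000005677, chromosome 1, 171213970 to 171220701, plus strand) had 380, 597, 561 and 412 counts in the control hearts, against 604, 703 and 718 in the Notch3-/- hearts. Its level was 130 ± 5.86 CPM (SD, n = 4) and 150 ± 14.7 CPM (SD, n = 3), and the groups overlapped, with Notch3-/- mouse 3 below control mouse 4.

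Nr1i3 lies over another gene. Tomm40l, a gene for a mitochondrial import protein on the opposite strand, shares 74.9% of the Nr1i3 exon bases, and the use of strand in counting is not given in the sources used here. Tomm40l had 596, 879, 809 and 662 counts in the control hearts, against 840, 917 and 1088 in the Notch3-/- hearts. Nr1i3 counts were 62.2% to 69.3% of the Tomm40l counts in control hearts and 71.9%, 76.7% and 66.0% in Notch3-/- mice 1 to 3. The reads of the 2 genes cannot be told apart, so the level of Nr1i3 in control hearts is uncertain.

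**Figure D1:**
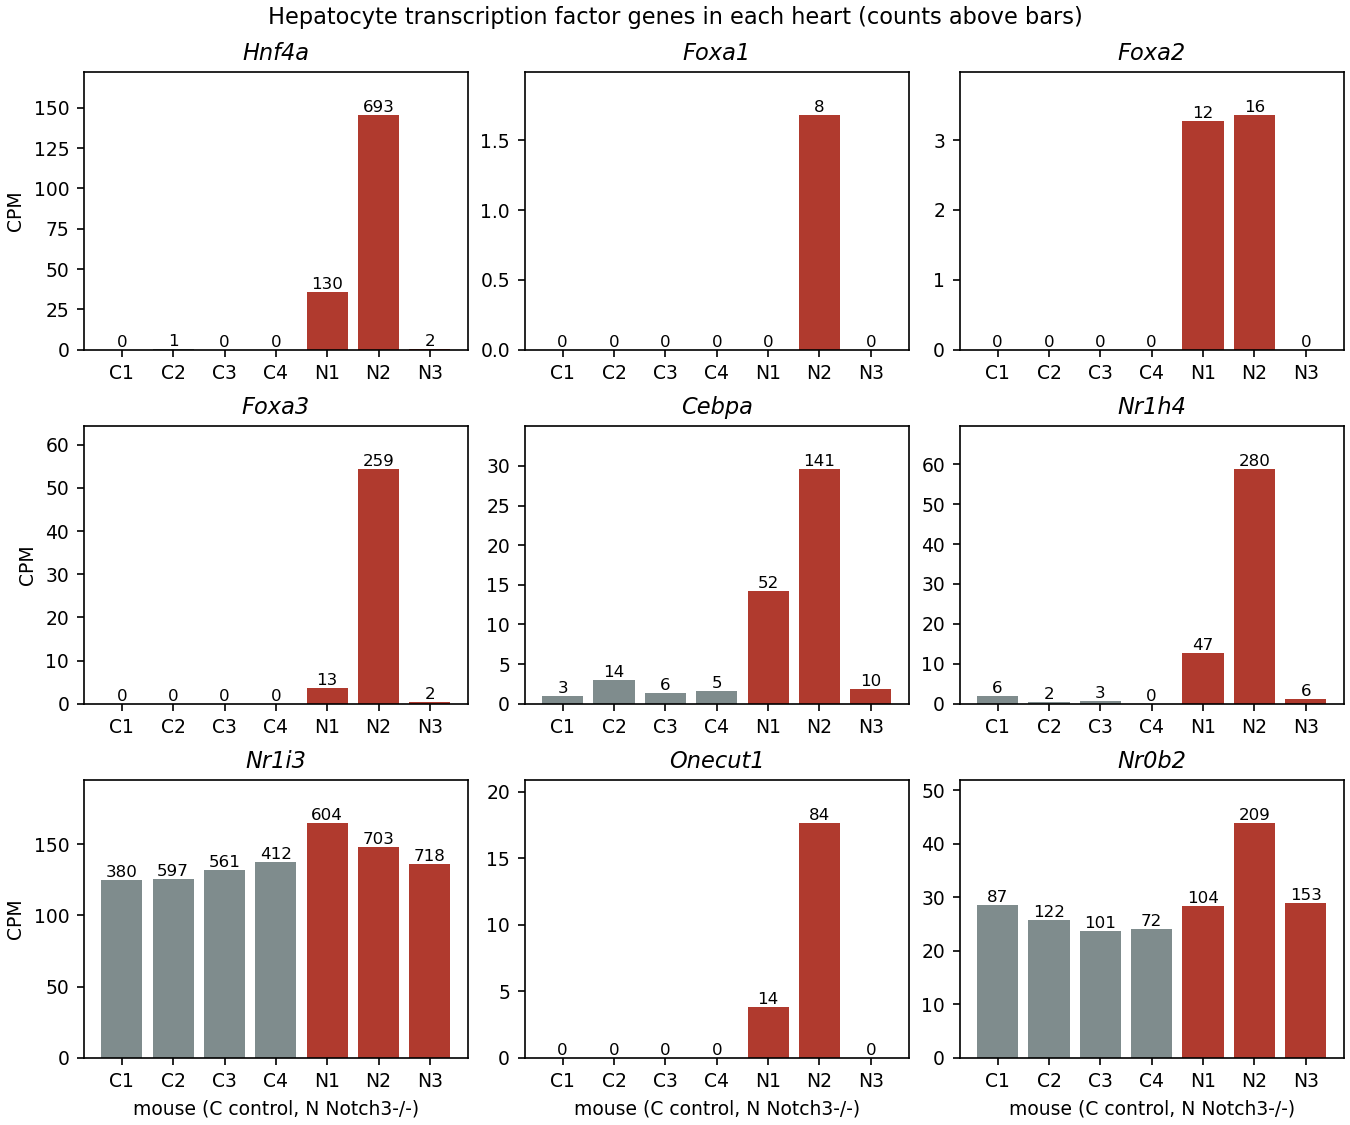
Level of each member in each heart, in TMM-normalised CPM, with bars for control mice 1 to 4 (C1 to C4, grey) and Notch3-/- mice 1 to 3 (N1 to N3, red) and the raw count above each bar; each panel has its own axis from 0. Hnf4a, Foxa1, Foxa2, Foxa3, Cebpa, Nr1h4 and Onecut1 are high in N1, N2 or both and near 0 elsewhere, whereas Nr1i3 and Nr0b2 have counts in all 7 hearts.

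The members thus fell into 2 patterns, and within the genotype the 3 hearts differed. Notch3-/- mouse 1 lay above every control heart for 7 of 9 members, where 21.4% of the 28790 genes with at least 1 count did so. Mouse 2 lay above every control heart for 9 of 9 members, against 26.0% of genes. Mouse 3 did so for 3 of 9 members, against 17.5% of genes, and these were Hnf4a and Foxa3 with 2 counts each and Nr0b2. All 3 Notch3-/- hearts lay above all 4 control hearts for 2 of 9 members, Hnf4a and Foxa3, against 3.16% of genes. Without Notch3-/- mouse 3 this held for 7 members, against 10.6% of genes, and without control mouse 1 for 4, against 4.47%. Among the 5 mice labelled k it held for 5 members, against 8.29% of genes, and in technical library 3 alone for 1, against 2.71%.

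In the comparison of genotypes, a gene needed a level equal to about 10 counts in at least 3 hearts to pass the filter of edgeR, and 3 of 9 members passed, namely Cebpa, Nr1i3 and Nr0b2. Cebpa reached that level in control mouse 2 and Notch3-/- mice 1 and 2. None of the 3 was called at an FDR under 0.05 with a fold change of at least 1.5, in a fit where 0.00698% of 14324 genes were called. The log2 difference of Cebpa was 3.05 (SE 0.77), with an edgeR FDR of 0.190 after Benjamini-Hochberg adjustment, and without Notch3-/- mouse 2 it was 2.09. That of Nr0b2 was 0.41 (SE 0.20), with an edgeR FDR of 0.507 after the same adjustment. For Nr1i3 the difference was 0.20 (SE 0.12). Each of the 3 genes was above every control heart in 2 of 3 Notch3-/- hearts. At an unadjusted p under 0.05, 1 member, Cebpa, was higher, as were 7.34% of the genes tested. Cebpa passed the filter only with Notch3-/- mice 1 and 2, where it is high, so this count is a description and not a test.

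The count of members called depended on the filter and on 1 mouse. With every gene that had at least 1 count in the fit, 5 of 9 members were called higher, against 2.18% of 28790 genes. These were Hnf4a (fitted log2 difference 9.26, SE 1.44), Foxa3, Cebpa, Nr1h4 and Onecut1. The size of such a fitted change depends on the prior count where control hearts are at 0, as the folds over the floor given above depend on the floor. DESeq2 called Hnf4a, Foxa3, Cebpa and Nr1h4, 4 of the 8 members that it gave an adjusted p, against 3.37% of genes called higher. Foxa1, Foxa2, Foxa3 and Onecut1, at 0 in every control heart, entered these 2 fits only through Notch3-/- hearts where they are high, so both numbers are descriptions and not tests. Without Notch3-/- mouse 3, 8 members passed the edgeR filter and 6 were called higher, Foxa2 and Onecut1 included, against 6.02% of 15008 genes. Hnf4a, Foxa2, Foxa3, Nr1h4 and Onecut1 passed that filter only through Notch3-/- mice 1 and 2, where they are high, so this number is a description and not a test. Among the 5 mice labelled k, 8 members passed the filter and edgeR called none, while 3 were higher at an unadjusted p under 0.05, against 5.01% of 14872 genes. These 5 genes and Cebpa entered this fit in the same way. The fitted log2 differences among these mice were 10.98 for Hnf4a, 9.35 for Foxa3, 7.91 for Onecut1, 5.81 for Nr1h4 and 3.28 for Cebpa. With every gene and all 7 mice they were 9.26, 9.30, 7.86, 4.94 and 3.02. Hnf4a, Foxa3 and Onecut1 had no counts in the control mice labelled k. The size of their values thus depends on the prior count and was not compared between fits. Nr1i3 and Nr0b2 were not called in any of these fits.

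Levels of different genes were compared per kilobase of exon, in CPM per kilobase. In Notch3-/- mouse 2, Nr0b2 (38.8), Nr1i3 (33.5), Hnf4a (30.2), Foxa3 (26.7) and Nr1h4 (25.6) followed in this order, and neighbours had overlapping 95% counting intervals. Cebpa (11.2), Onecut1 (4.30) and Foxa2 (1.42) were lower, each apart from the gene before it, and Foxa1 (0.506) overlapped Foxa2. In Notch3-/- mouse 1, Hnf4a (7.36), Nr1h4 (5.58) and Cebpa (5.39) overlapped, and all lay below Nr0b2 (25.1) and Nr1i3 (37.4). Foxa3, near the level of Hnf4a in mouse 2, was at 1.74 and beside Foxa2 in mouse 1. In mouse 3, Nr1i3 (30.8) and Nr0b2 (25.6) were followed by Cebpa at 0.717, as in control mouse 2, where Cebpa was at 1.12.

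The technical libraries gave the same picture for the members with many counts. Hnf4a had 28, 53 and 49 counts in the 3 libraries of Notch3-/- mouse 1 and 251, 236 and 206 in those of mouse 2. All 3 libraries of both mice carried it, so the high values did not rest on 1 library. In Notch3-/- mouse 3, the 10 Cebpa counts came to 80.0% from 1 library and the 6 Nr1h4 counts to 83.3%.

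**Figure D2:**
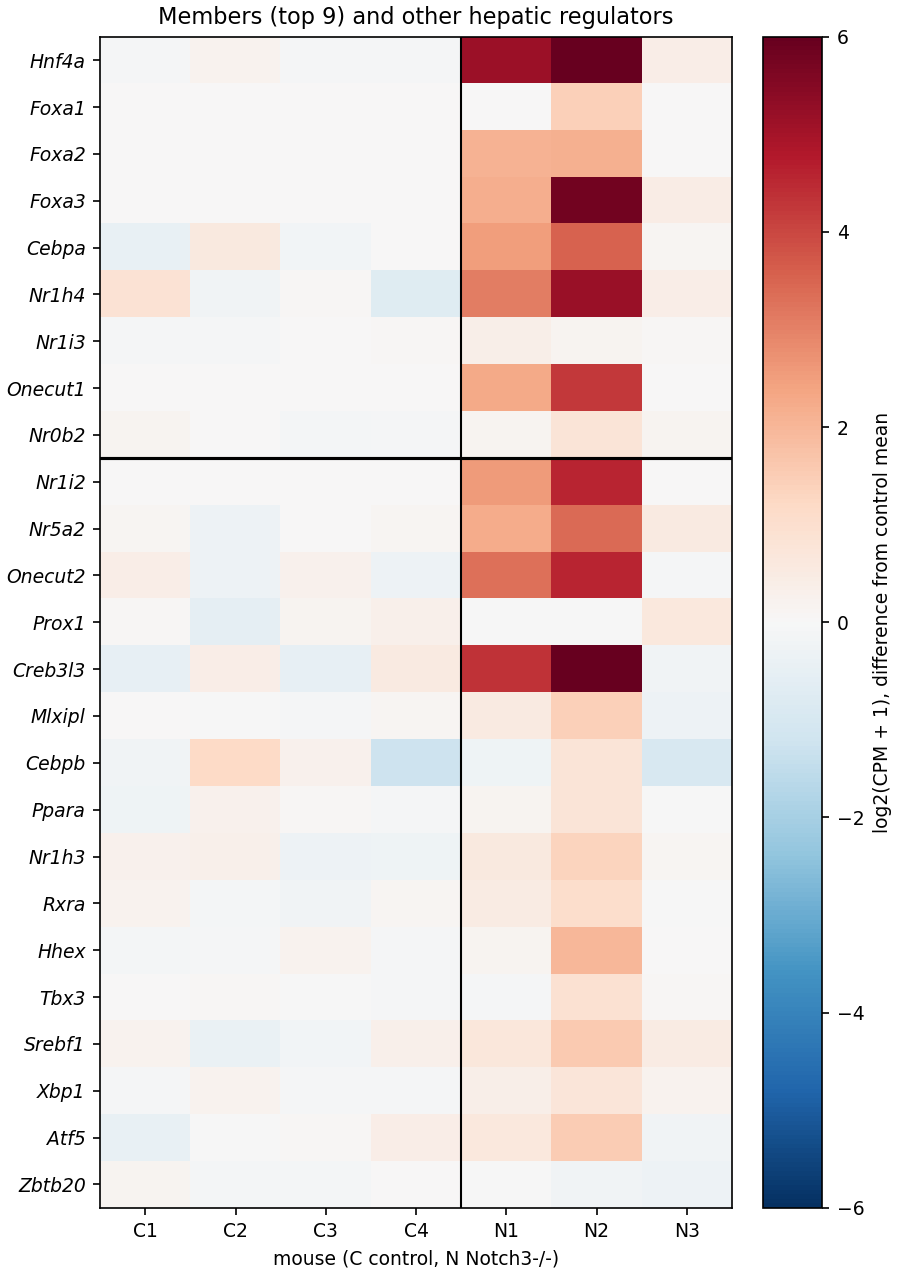
Difference of log2(CPM + 1) from the mean of the 4 control hearts for the 9 members (above the line) and 16 other hepatic regulators, in control mice C1 to C4 and Notch3-/- mice N1 to N3. Values above the end of the colour scale are drawn at its end, column N2 is red for the 7 members other than Nr1i3 and Nr0b2, columns N1 and N2 are red for Nr1i2, Nr5a2, Onecut2 and Creb3l3, and column N3 is close to the control columns.

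The wider network was described with a list of 16 other hepatic regulators. Creb3l3, a factor of the fasting response, had at most 4 counts in a control heart and 100, 664 and 1 in Notch3-/- mice 1 to 3. Nr1i2, the pregnane X receptor, had no counts in control hearts and 18, 108 and 0 in Notch3-/- mice. Onecut2 had at most 2 counts in a control heart and 42, 136 and 1 in Notch3-/- mice. Nr5a2, a nuclear receptor of bile acid synthesis, had at most 1 count in a control heart and 17, 56 and 4 in Notch3-/- mice. These 4 genes were high in Notch3-/- mice 1 and 2, as Hnf4a was. On the list, 12 genes passed the filter and none was called by edgeR with 7 mice, while 7 were higher at an unadjusted p under 0.05, against 7.34% of genes. With every gene in the fit 5 of 16 were called higher, against 2.18% of genes, and DESeq2 called 3, against 3.37%. Without Notch3-/- mouse 3, 7 were called, against 6.02%. These 7 included Creb3l3, Nr1i2, Onecut2 and Nr5a2, which entered that fit only through Notch3-/- mice 1 and 2, and Nr1i2 entered the fit of every gene and DESeq2 through them alone, so these numbers are descriptions and not tests.

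Some regulators on the list are expressed in control hearts too. Mlxipl, the carbohydrate response factor, had 260, 393, 341 and 282 counts in the control hearts, against 460, 1108 and 366 in the Notch3-/- hearts. Srebf1 had 374, 383, 405 and 395 counts in the control hearts, against 617, 1509 and 794 in the Notch3-/- hearts. It was called higher with every gene in the fit and by DESeq2. Srebf1 and Nr5a2 were the 2 of 16 above every control heart in all 3 Notch3-/- hearts, against 3.16% of genes. Of the 16 regulators, Notch3-/- mouse 1 lay above every control heart for 10 (against 21.4% of genes), mouse 2 for 13 (26.0%) and mouse 3 for 3 (17.5%). Prox1, Zbtb20 and Cebpb lay above every control heart in neither mouse 1 nor mouse 2, and these genes, Mlxipl and Srebf1 were chosen after their values were seen. The median log2 ratio between groups, with genes at 0 set to the floor, was 3.36 for the members, 0.73 for the 16 regulators, 6.85 for 19 liver products and 0.00 for the 21707 genes that exceeded the floor in a group. Foxa1, Foxa2, Foxa3 and Onecut1, at 0 in control hearts, entered the median of the members through the floor. That median is the value of Foxa2, set by the floor, so its size was not compared with the other medians.

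The known targets of the members were read from lists given by factor. The filtered fit of edgeR called none of them. It held 3 Hnf4a, 1 Foxa, 3 Cebpa, 1 Nr1h4, 2 Nr1i3 and 1 Onecut1 targets, of which 3, 1, 3, 1, 1 and 0 were higher at an unadjusted p under 0.05 (7.34% of all genes tested). Apob and Tat, at most 2.11 and 1.90 CPM in a control heart, passed the filter through Notch3-/- hearts alone, so these counts are descriptions and not tests. DESeq2 called 5, 3, 4, 3, 3 and 0 higher on these lists, where 3.37% of all genes were. With every gene in the fit, where 2.18% of genes were called higher, edgeR called all 5 Hnf4a targets. F9, the gene for coagulation factor IX, had no counts in control hearts and 89, 453 and 2 in Notch3-/- mice 1 to 3. The 3 Foxa targets Ttr, Igfbp1 and Slc2a2 and the 4 Cebpa targets Tat, Cps1, Pck1 and G6pc were also all called in that fit. G6pc, the enzyme that releases glucose from the hepatocyte, had at most 3 counts in a control heart and 173, 1914 and 3 in Notch3-/- mice. Targets at 0 in control hearts, such as F9, entered that fit and DESeq2 through Notch3-/- hearts alone, so these numbers are descriptions too.

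Most targets of the 3 nuclear receptors were high in the same 2 hearts too. Above every control heart in Notch3-/- mouse 1, and also in mouse 2, were 5 of 6 Nr1h4 targets, 3 of 4 Nr1i3 targets and 2 of 2 genes that SHP represses, against 21.4% and 26.0% of genes. Of the Nr1h4 targets, Abcb11, Baat and Slc27a5 were called in that fit. Abcb4, with 94, 139, 165 and 102 counts in the control hearts, against 212, 667 and 117 in the Notch3-/- hearts, and Slc51b, with 7 and 1 counts in Notch3-/- mice 1 and 2 only, were not. Slc51a, which exports bile acids in the intestine, had 4, 11, 0 and 0 counts in the control hearts, against 1, 0 and 1 in the Notch3-/- hearts. Of the Nr1i3 targets, Cyp2c29, Cyp2c37 and Ugt1a1 were called. Cyp2b10, the typical CAR target, had 11, 73, 75 and 16 counts in the control hearts, against 24, 22 and 237 in the Notch3-/- hearts, with its highest level in mouse 3. Cyp2c29, in contrast, had 507, 1732 and 2 counts in Notch3-/- mice 1 to 3. Cyp7a1 and Cyp8b1, the bile acid synthesis genes that SHP represses, had 47, 236 and 0 and 168, 1506 and 10 counts in Notch3-/- mice and were called higher in that fit, while DESeq2 called 1 of the 2. The Onecut1 target Pfkfb1, which muscle also expresses, had 183 to 357 counts in the control hearts, against 217, 351 and 403 in the Notch3-/- hearts, and was not called.

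To compare regulators with products, the 9 members were set against 19 liver products in each heart. Among the products, Mat1a, which makes the methyl donor of the liver, had 2, 31, 0 and 1 counts in the control hearts, against 2271, 5804 and 18 in the Notch3-/- hearts. Together the products had 374, 1150, 354 and 318 counts in control hearts 1 to 4, against 29147, 65880 and 1190 in Notch3-/- hearts 1 to 3. All 19 lay above every control heart in Notch3-/- mice 1 and 2, and 7 of 19 did so in mouse 3, against 17.5% of genes. Members came to 335 (95% exact interval 314 to 357) and 363 (349 to 378) per 10000 product counts in Notch3-/- mice 1 and 2. In mouse 3 the ratio was 7487 (6857 to 8174), and in control hearts it was 6400.0 to 18955, because Nr1i3 and Nr0b2 were counted in every heart. Without these 2 genes, an alternative chosen after seeing the data, the ratio was 91.9 (81.2 to 104), 225 (213 to 237) and 168 (102 to 261) in the 3 Notch3-/- hearts, against 148 to 254 in control hearts. The control ratios rest on 5 to 17 member counts a heart, and their exact intervals reached from 50.7 to 488. These counts were Cebpa and Nr1h4, with 1 Hnf4a count in control mouse 2. Other genes thus made up the sum in Notch3-/- mice 1 and 2, and the ratios of the groups were not compared.

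The comparison was then narrowed to genes at low levels in control hearts. Of the 19 products, 4 had a control mean over 5 CPM, led by Vtn (58.9 CPM) and Alb (29.1 CPM), and 15 did not. Hnf4a, Foxa1, Foxa2, Foxa3 and Onecut1, the 5 members with at most 1 count in the control mice together, were set against these 15 products, both lists being chosen after their values were seen. They had 169 counts beside 18341 product counts in Notch3-/- mouse 1 and 1060 beside 46754 in mouse 2, or 92.1 (78.7 to 107) and 227 (213 to 241) per 10000. In mouse 3 they had 4 counts (95% exact interval 1.09 to 10.2) beside 447 product counts. At the ratio of mouse 1, 4.12 counts would accompany these products and at the ratio of mouse 2, 10.1, so the counts of mouse 3 lay within counting error of both ratios. With Cebpa and Nr1h4 added, which had counts in control hearts, mouse 3 had 20 counts, or 447 (271 to 699) per 10000, above the ratio of mouse 1, 146 (129 to 165), while its interval included that of mouse 2, 317 (301 to 334). Cebpa had 10 counts (4.80 to 18.4) in mouse 3, where the ratios of mice 1 and 2 give 1.27 and 1.35, and Nr1h4 had 6 (2.20 to 13.1), where they give 1.15 and 2.68. The comparison of mouse 3 thus depended on the members taken. Control mouse 2 had 1 count beside 401 product counts and the other 3 control mice had 0 counts beside 50 to 77. The 5 members were selected by these control counts, so the control hearts are described here and were not compared with the ratios.

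**Figure D3:**
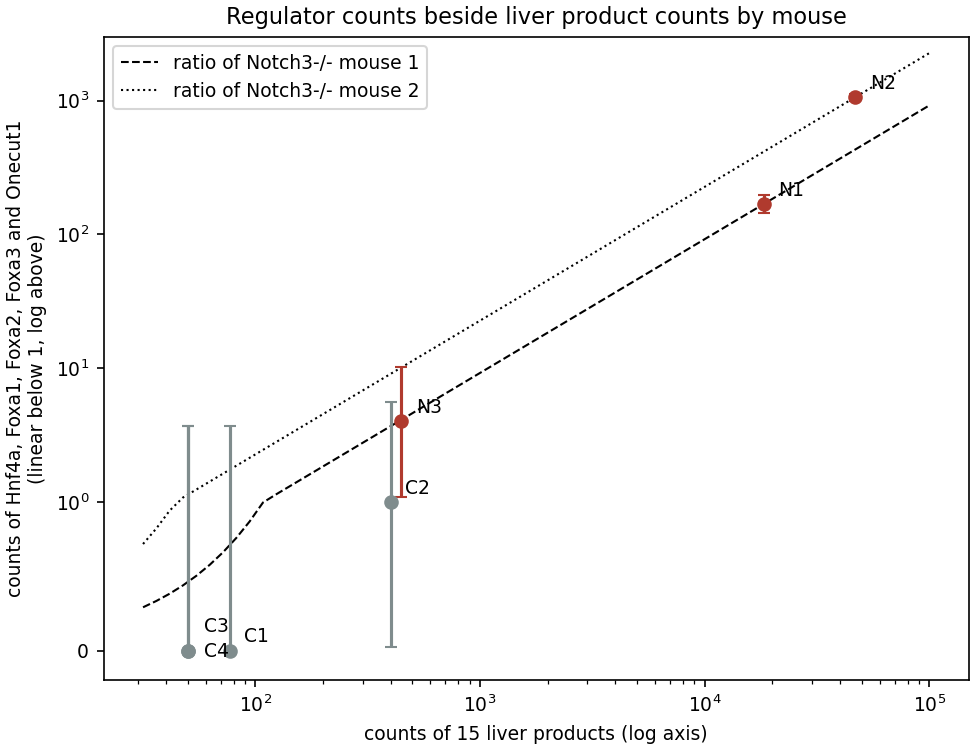
Summed counts of Hnf4a, Foxa1, Foxa2, Foxa3 and Onecut1 against summed counts of 15 liver products in each heart (C1 to C4 control, grey; N1 to N3 Notch3-/-, red), with 95% exact Poisson intervals and lines at the ratios of N1 and N2. The interval of N3, with 4 counts beside 447 product counts, includes both lines, and C3 and C4 share 1 point.

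The ratio of Notch3-/- mouse 2 to mouse 1 differed from gene to gene, among regulators and among products. The level in mouse 2 over that in mouse 1 was 15.3 for Foxa3 (95% exact interval 8.81 to 29.2), 4.62 for Onecut1 (2.61 to 8.81), 4.58 for Nr1h4 (3.36 to 6.39) and 4.10 for Hnf4a (3.40 to 4.99). It was 2.09 for Cebpa (1.51 to 2.93) and 1.03 for Foxa2 (0.456 to 2.38). Nr0b2 was at 1.55 (1.22 to 1.98) and Nr1i3 at 0.896 (0.802 to 1.00), and the 16 other hepatic regulators had a median of 1.87, with a range from 0.859 to 5.11. Over the 19 products the median was 1.97, with a range from 1.10 for Alb to 3.21 for Fbp1. The interval of Fbp1 (2.94 to 3.52) overlapped those of Hnf4a and Nr1h4, and that of Cebpa included the median of the products. High ratios were not particular to regulators. Of 23 targets of the members with at least 10 counts in both hearts, 8 had a ratio at or over that of Hnf4a, led by G6pc at 8.52 (7.29 to 10.0) and Cyp8b1 at 6.90 (5.88 to 8.14), and the median of the 23 was 3.01. Over the 13812 genes with at least 10 counts in both hearts the median was 1.01. Alb, at 1.30, and Apoa2, at 1.10, had over 1 count for each exon base in a library and 13 of 19 products had over 0.5, whereas no member exceeded 0.0786. The part of this limit in the ratios was not tested.

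**Figure D4:**
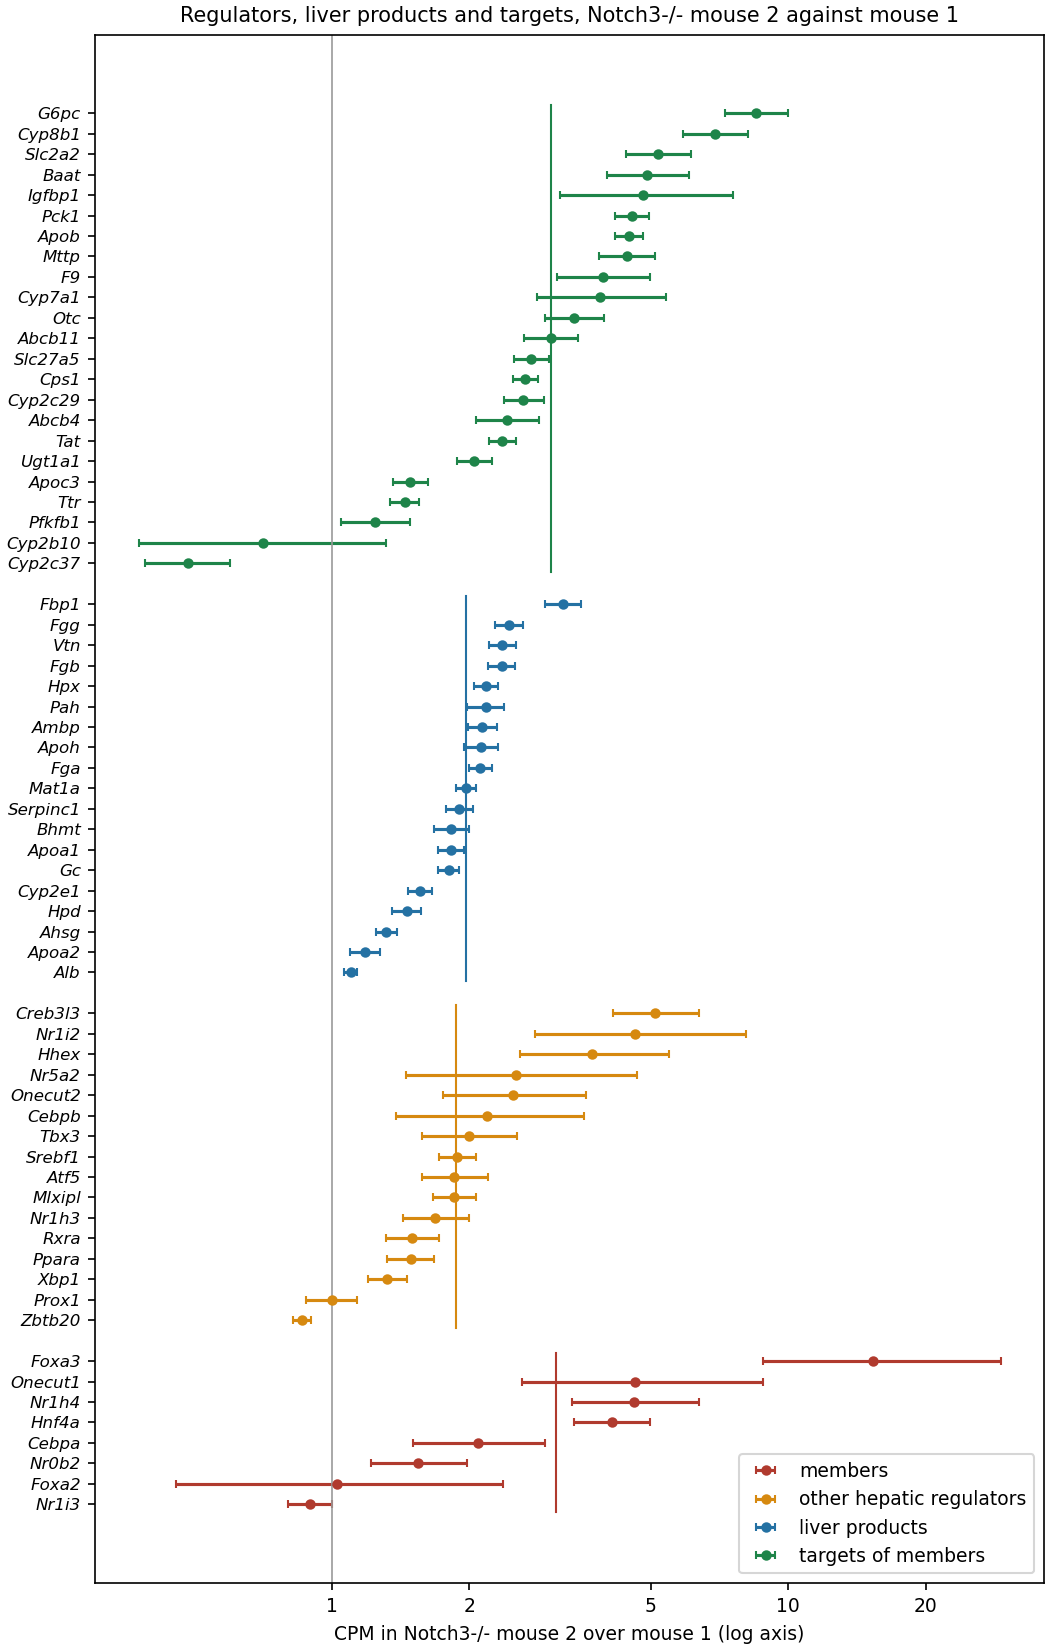
Level in Notch3-/- mouse 2 over that in mouse 1 (log axis) for 8 members, 16 other hepatic regulators, 19 liver products and 23 targets of members with at least 10 counts in both hearts, with 95% exact intervals and a vertical line at the median of each list. Foxa3 stands at 15.3 and Hnf4a at 4.10, the listed products reach 3.21 and the targets reach 8.52.

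The genes most like Hnf4a were sought among 19597 genes with at least 10 counts, by the root mean square distance between centred log2 CPM profiles over the 7 hearts. The nearest 8 were Acsm1 (distance 0.15), Cyp2c50, Grb7, Aqp9, Bhmt2, Cyp4a14, Pklr and Cyp3a25 (0.25). Acsm1, an acyl-CoA synthetase gene, had 0, 2, 0 and 0 counts in the control hearts, against 161, 724 and 2 in the Notch3-/- hearts. The same hearts were high and low for it as for Hnf4a. The sum of the 9 members is mostly Nr1i3 in control hearts, and the nearest 8 genes to the sum were Gstz1 (0.09), Pxdc1, Mthfd1, Acat3, Tuba1c, Pid1, Nadk and Cers2 (0.12), all of them with counts in every control heart.

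Several members are also expressed outside the liver, so markers of other cell types were read in the same hearts. Cebpa and Nr0b2 are expressed in adipocytes. Adipoq and Plin1 had at most 7 counts in any heart, while Cidec had at most 6 counts in a control heart and 9, 90 and 0 in Notch3-/- mice 1 to 3, above every control heart in mice 1 and 2. The 7 adipocyte markers, led by Pparg, summed to 15.5 to 31.4 CPM in control hearts and 26.8, 38.7 and 24.0 CPM in Notch3-/- hearts. Hnf4a, Foxa2 and Nr1h4 are expressed in kidney, pancreas and intestine. The 5 kidney tubule markers, led by Slc12a1, summed to 0.273, 0 and 0 CPM in Notch3-/- hearts and at most 0.843 CPM in a control heart, with Umod, Slc34a1 and Slc22a6 at 0 in all 7 hearts. The 7 pancreas markers, led by Cpa1, summed to at most 0.567 CPM, with Pdx1, Ins1, Ins2, Gcg and Prss2 at 0.

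The intestine list, led by Lgals4, which heart expresses, summed to 103 to 185 CPM in control hearts and 85.3, 122 and 157 CPM in Notch3-/- hearts. Cdx1 and Cdx2, which define intestinal epithelium, had at most 1 count in a heart, while Fabp2, which liver shares, had 13, 221 and 0 counts in Notch3-/- mice. Vil1 had 0, 7, 1 and 10 counts in the control hearts, against 0, 0 and 1 in the Notch3-/- hearts. Of the 5 genes, 1, 2 and 0 lay above every control heart in Notch3-/- mice 1 to 3, against 21.4%, 26.0% and 17.5% of genes. The 6 lung epithelium markers, led by Scgb1a1, summed to 5.47, 2.73 and 0.378 CPM in Notch3-/- hearts, against 7.17 CPM in control mouse 2 and 0.235 to 1.34 CPM in the other control hearts. Nkx2-1 had at most 2 counts in a heart. The granulocyte markers, led by S100a8, were at most 3.01 CPM in any heart, with Mpo at 0. The bile duct list, led by Sox9, was at 21.3, 55.9 and 18.7 CPM in Notch3-/- hearts and 8.22 to 21.7 CPM in control hearts, with Epcam and Cftr at no more than 3 counts. Of its 6 genes, 1, 5 and 1 lay above every control heart in Notch3-/- mice 1 to 3, against 21.4%, 26.0% and 17.5% of genes. Spp1 had at most 6 counts in a control heart and 7, 97 and 10 in Notch3-/- mice, and was called by DESeq2 and not by edgeR with every gene in the fit. The part of these cell types was not tested.

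Markers of Kupffer and liver sinusoidal cells were higher than in control hearts in Notch3-/- mice 1 and 2 too. The 6 genes of this list, led by Stab2, summed to 9.88 to 13.7 CPM in control hearts and to 83.4, 119 and 19.9 CPM in Notch3-/- hearts 1 to 3. Clec4f, a marker of Kupffer cells, had 0, 6, 7 and 2 counts in the control hearts, against 83, 128 and 10 in the Notch3-/- hearts. Timd4 differed, with its highest level in mouse 3 (3.01, 3.79 and 5.48 CPM in Notch3-/- mice 1 to 3). All 6 lay above every control heart in Notch3-/- hearts 1 and 2, as did 4 of them in heart 3, against 21.4%, 26.0% and 17.5% of genes, and none was at 0 in all hearts. The filtered fit of edgeR held 4 of them and called none, with 4 higher at an unadjusted p under 0.05 (7.34% of genes). Cd5l and Timd4 passed that filter only with Notch3-/- hearts where they are high, so this count is a description and not a test. DESeq2 called 3 (3.37% of genes) and edgeR with every gene in the fit called 3 (2.18%). Their part in the result for the members was not tested.

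The labelled tissue was read from its own genes. The 7 cardiomyocyte genes, led by Ttn, summed to 17953 to 24952 CPM in control hearts and 24942, 16399 and 17638 CPM in Notch3-/- hearts, and the groups overlapped. Their median log2 fold change was -0.24, against 0.00 over all genes tested, and edgeR called none of them, with 0 at an unadjusted p under 0.05 and 0 called by DESeq2. The 7 cardiac regulators, led by Tbx20 and including Gata4, Nkx2-5 and Tbx5, summed to 473 to 626 CPM in control hearts and 523, 419 and 550 CPM in Notch3-/- hearts, and for them these 3 numbers were 0 as well.

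**Figure D5:**
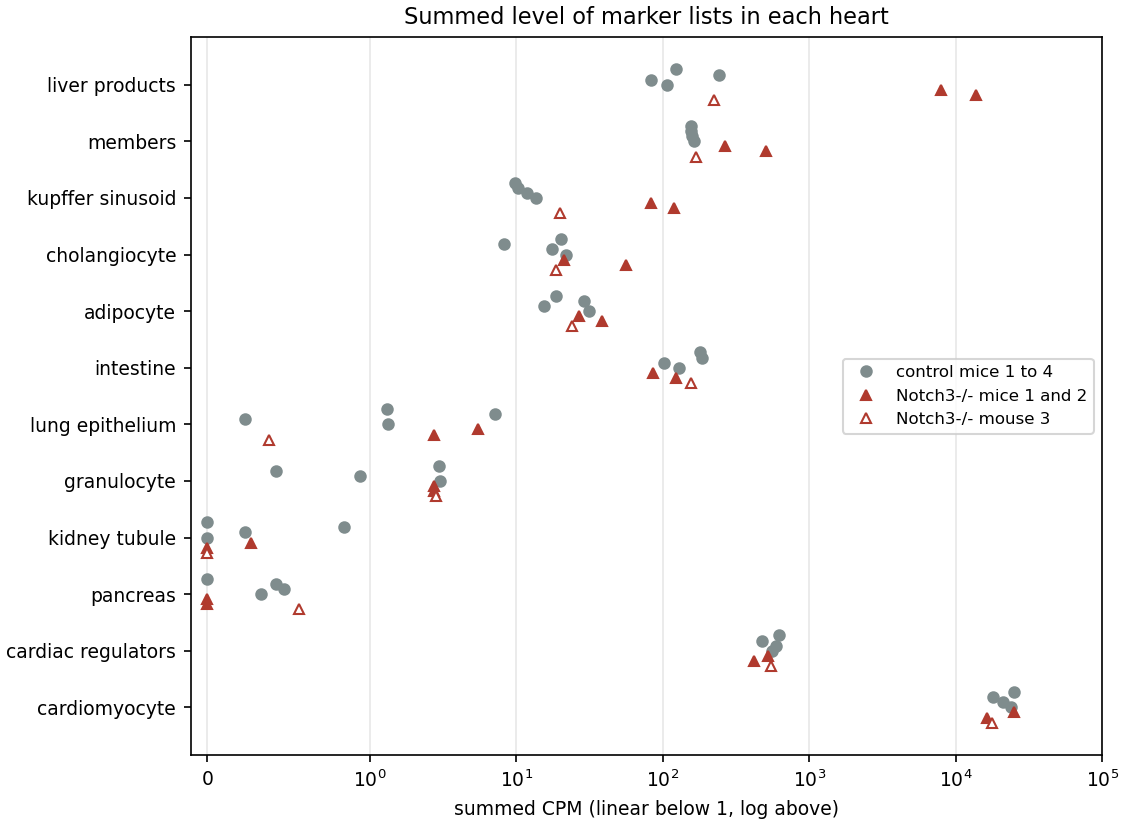
Summed CPM of each marker list in each heart (linear below 1, log above), with grey circles for control mice 1 to 4, filled triangles for Notch3-/- mice 1 and 2 and open triangles for Notch3-/- mouse 3. Liver products and Kupffer and sinusoidal markers of the filled triangles lie above all circles, whereas kidney and pancreas markers are below 1 CPM in every heart.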

How the data were processed

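Bulk RNA-sequencing counts of hearts from 4 control and 3 Notch3-/- mice were used. The deposited values are counts, whole numbers of reads per Ensembl gene, which the authors did not normalize. The submitters' processing notes name the genome build mm10 and CASAVA, and the aligner and counting program are not given in the sources used here. The 92 ERCC lines (34 counts) were left out. Technical libraries were summed per mouse. Tests were run in R 4.3.3 with edgeR 4.0.16 (filterByExpr, TMM, quasi-likelihood F-test, genotype only) over all genes, and a call needed a Benjamini-Hochberg FDR under 0.05 and a change of 1.5-fold or more. DESeq2 1.42.0 and limma 3.58.1 were alternatives. SE of a log2 fold change was its size over the root of F. Exact intervals were computed with SciPy. Members and lists were chosen with earlier results of these data known, and 4 genes were later left out of the lists, whatever their values. Named genes were all members and, per list, up to 4 with the largest fitted change among genes with at least 10 counts. Others, such as Abcb4, Slc51b, Alb and Plin1, were named outside this rule. The fits were tested on simulated data.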

Additional observations from a re-analysis of the deposited data

Results flagged for a closer look

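Of 23 sets of 4 control values looked at, 2 had a mouse far from the others, where chance gives about 1 in 20. The 6 Nr1h4 targets summed to 40.0 CPM in control mouse 3, against 34.4 CPM in the next control mouse. Lung epithelium markers summed to 7.17 CPM in control mouse 2, against 1.34 CPM in the next, with Scgb1a1 leading. The ERCC spike-in sequences, which were not part of the comparisons, had 18 counts in technical library 1 of Notch3-/- mouse 1, while no control library had more than 3 and all other libraries together had 16. The cause was not tested.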

How the results depend on the processing

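Calls depended on the filter, the tool and Notch3-/- mouse 3. All genes called went from 1 to 601 with DESeq2, 639 with every gene, 65 with limma-voom on 21 libraries, 48, 39 and 77 with technical library 1, 2 or 3 alone, and 1627 with every gene and no Notch3-/- mouse 3 (chosen after seeing the data), and were 0 by edgeR in mice labelled k, where 745 were higher and 204 lower at an unadjusted p under 0.05. Members called went from 0 to 4, 5 and 6 with DESeq2, every gene, and every gene without that mouse. In these fits 601, 639 and 1627 of all genes were called, with 3.37% called higher by DESeq2 and 2.18% with every gene. Other hepatic regulators called went from 0 to 3, 5 and 10 in the same fits and, with limma-voom on 21 libraries, to 1. With the technical number as a block, limma-voom called 62 genes, 0 members and 1 other regulator. Both limma-voom fits held 2 members, Nr1i3 and Nr0b2, so the other members could not be called in them. Libraries of the same number in different mice did not deviate together (median r -0.008 over 63 pairs), so the number pairs no samples, and on simulated data these 21-library fits called more unchanged genes than their FDR allows. Leaving out 1 mouse gave 1 to 936 genes, 0 to 6 members and 0 to 7 other regulators called, and 2 to 7 members above every control heart, with the highest values without Notch3-/- mouse 3. Members above every control heart numbered 5 in mice labelled k, against 8.29% of all genes, and 1 in technical library 3 alone, against 2.71%. Log2 fold changes of Cebpa, Nr1i3 and Nr0b2 kept their sign in every fit that held them, and that of Cebpa ran from 2.09 to 3.57 as 1 mouse was left out.

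Regulators per 10000 products moved with the lists. Without Alb they were 15556 and 9621 in control hearts 1 and 2, against 426, 420.1 and 10658 in Notch3-/- hearts 1 to 3. With products under 0.5 counts per exon base they were 119000.0, 55758, 80843 and 125385 in control hearts 1 to 4, against 1740, 1685 and 46649 in Notch3-/- hearts, and per kilobase of exon 8798, 4300, 13743, 9918, 210.4, 252 and 5028 in the same order. Technical library 1 alone gave 8910 in control heart 2, against 264, 384 and 11863 in Notch3-/- hearts. Library 2 alone gave 4569 in control heart 2, against 363, 362 and 10531 in Notch3-/- hearts. Library 3 alone gave 5389 in control heart 2, against 367, 342 and 5533 in Notch3-/- hearts. Without Nr1i3 and Nr0b2 the 7 mice had 241, 148, 254, 157, 91.9, 225 and 168. Without products over 5 CPM in control hearts they had 61818, 18354, 134200.0, 97800.0, 532, 512 and 19933. With 7 members over these 15 products they had 1169, 424, 1800.0, 1000, 146, 317 and 447. With 5 members over the 15 products they had 0, 24.9, 0, 0, 92.1, 227 and 89.5. The last 4 alternatives were chosen after seeing the data. The order of Notch3-/- mice 1 and 2 changed with the list and with the technical library, and the cause was not tested.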
